A study of Homo sapiens with 24 samples.

Results

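The comparison described here is of dexamethasone-treated Nalm6 cells depleted of G9a with dexamethasone-treated control cells, by RNA-seq. It contrasts 6 of the 24 libraries of the study, 3 labelled shG9a dex and 3 labelled shNS dex, for all 10167 transcripts tested. The model was fitted to all 24 libraries, so the spread and the replicate block were estimated from the 18 others as well. Nalm6 is an established line from a human acute lymphoblastic leukaemia of B-cell precursors. All 6 cultures carried a lentiviral small hairpin RNA, against G9a or with a non-specific sequence (shNS), were selected with puromycin as populations and not as single clones, and received 100 nM dexamethasone (dex) for 8 h. The 18 other libraries were cells with the same hairpins given the vehicle ethanol, and cells with hairpins against GLP (shGLP) or HP1γ (shHP1g) given dex or ethanol, with 3 replicates of each of the 8 groups. Replicates were made on different days, and libraries with the same replicate number were fitted as a block.

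G9a and GLP are paired enzymes that place methyl groups on lysine 9 of histone H3, a mark of silent chromatin, and that can also methylate themselves. HP1γ is a reader protein that binds such methyl-lysines. Dex is a man-made glucocorticoid hormone. Its receptor is a transcription factor which induces some genes and represses others and which brings about death of lymphoid cells. G9a is known both as a repressor of genes and as a coactivator of this receptor, and the comparison asks which mRNA levels differ once G9a is depleted and the hormone is present.

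Each value below is given in CPM, the counts of a transcript scaled to a common library total. Fold changes are log2 values of shG9a over shNS from an edgeR quasi-likelihood fit, with their standard errors, and a transcript was called at a Benjamini-Hochberg adjusted p of at most 0.05 with no minimum fold change. Levels are not scaled to transcript length, so they are compared between libraries and not between genes. With 3 libraries against 3, no exact permutation test of a single transcript could give a two-sided p below 0.1. Because RNA was taken from whole cultures, less RNA per cell and fewer cells that make an RNA cannot be told apart.

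The 6 libraries held 10658972 to 14387770 counts, with a median of 11436812.5. Among the defining genes of the B-cell precursor, RAG1 and MME (16.5 to 23.96 CPM) were found in all 6 libraries, while CD79B and DNTT were at 0 in all 6 libraries. Of the 10 B-cell precursor markers 4 passed 1 CPM in any library, and their sum was 1575 to 1769 CPM in shNS dex and 2168 to 2249 CPM in shG9a dex. RAG1 made up most of this sum and of its rise, at 1488 to 1676 CPM in shNS dex and 2096 to 2157 CPM in shG9a dex. In the other direction, IGLL1 stood at 59.0 to 62.1 CPM in shNS dex and at 25.3 to 59.6 CPM in shG9a dex, and CD79A at 8.34 to 11.9 CPM and at 1.37 to 7.52 CPM, and neither was called (adjusted p = 0.0725 and 0.0708). None of 4 T-cell markers passed 1 CPM, against 1 of 4 myeloid markers, with a myeloid sum of 2.75 to 3.44 CPM in shNS dex and 4.50 to 7.05 CPM in shG9a dex. LYZ made up most of the myeloid sum, at 1.62 to 3.13 CPM in shNS dex and 4.32 to 6.62 CPM in shG9a dex. LYZ was not called (adjusted p = 0.0572), and the myeloid marker MPO was fitted lower (-0.93) and was not called either. For erythroid and megakaryocyte cells 1 of 7 markers passed, and the sums of 2.12 to 2.35 CPM and 1.80 to 2.77 CPM overlapped. The part of these markers in the results was not tested.

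The hairpin's own target could not be read, since the mRNA of EHMT2, the gene of G9a, was not analysed here. The study's methods name a single vector against G9a. Loss of G9a and other effects of that hairpin or of the control hairpin therefore cannot be told apart, and depletion below means shG9a against shNS. Its partner EHMT1, which encodes GLP, stood at 2.67, 3.53 and 3.72 CPM in shNS dex and at 3.81, 3.09 and 3.85 CPM in shG9a dex, and was not called (log2 fold change 0.11 ± 0.20, adjusted p = 0.801). The tested transcripts of CBX3, which encodes HP1γ, were not called (-0.07 and 0.44), nor were those of the G9a partner zinc finger genes WIZ (-0.14 and 0.05) and ZNF644 (-0.07). None of 26 transcripts of 19 genes for H3K9 methylation writers and HP1 proteins and none of 10 transcripts of H3K9 demethylases was called. Over all tested transcripts 8.8% were called. Several of the writer transcripts were rare, such as SUV39H1 (0.45 CPM) and ADNP (0.66 CPM), and below 2 CPM only 1.57% of all transcripts were called.

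In dex, 895 of the 10167 transcripts (8.8% of those tested), from 890 genes, differed between shG9a and shNS cells. Rises and falls were nearly even in number. A total of 445 were higher in shG9a (4.38%) and 450 were lower (4.43%). Most changes were small. Of the 895, 422 changed by less than 1.3-fold, 368 by 1.3 to 2-fold and 105 by at least 2-fold (1.03% of those tested, against 4.65% called with at least 1.3-fold), of which 42 were higher and 63 lower. The median change was 0.38 among the rises and -0.41 among the falls, and 0.003 over all tested transcripts. In 885 of the 895 each of the 3 replicate pairs had the same sign, and in 779 the libraries of the 2 groups did not overlap, which held for 20.8% of all tested transcripts (10.6% above and 10.2% below). At an unadjusted p under 0.05 there were 2358 transcripts. Without the replicate block 320 transcripts were called, all of them among the 895 and with the same sign. Fitted on only the groups compared, with the block, 167 were called, 160 of them among the 895 and with the same sign.

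**Figure D1:**
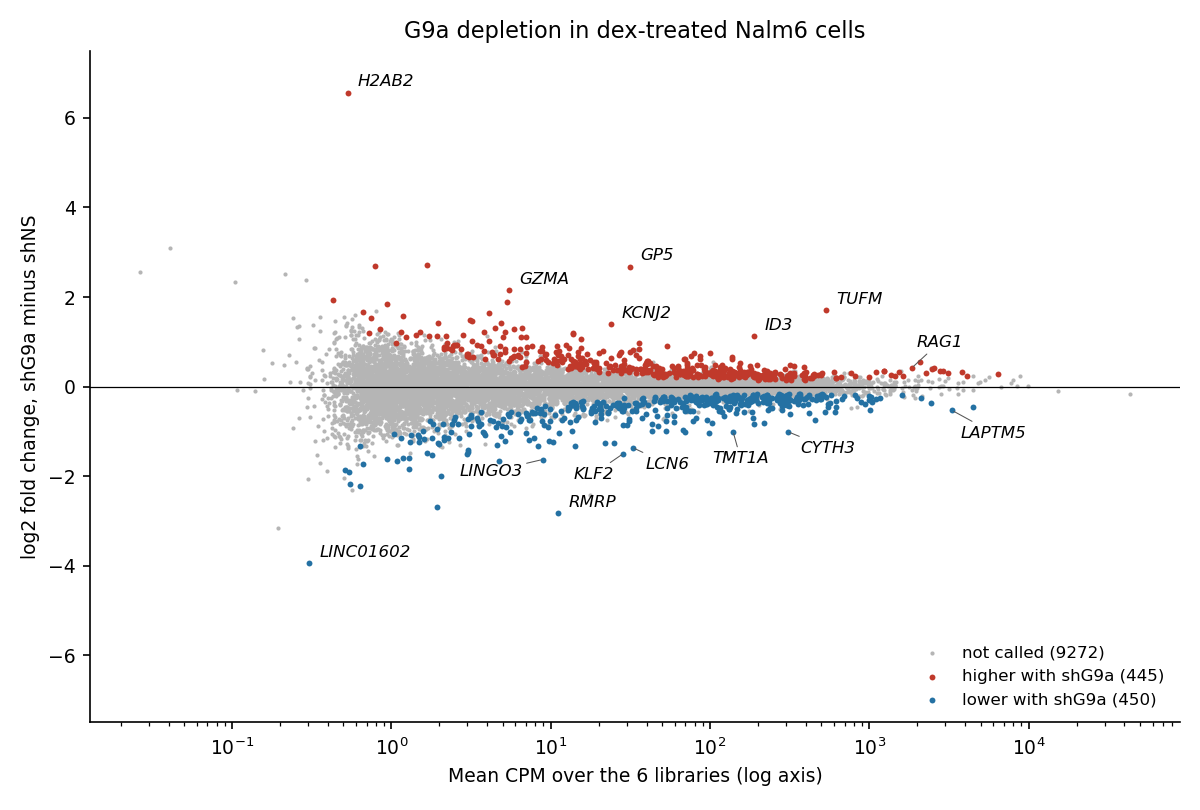
Log2 fold change of shG9a over shNS in dex (vertical axis) against the mean level over the 6 libraries in CPM (horizontal log axis), with 1 point for each of 10167 tested transcripts. The 445 called rises are red, the 450 called falls blue and the 9272 transcripts not called grey, and small changes are called mainly at high levels.

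The share called rose with the level of the transcript. It was 1.57% below 2 CPM, 4.51% from 2 to 5 CPM, 9.41% from 5 to 20 CPM, 14.4% from 20 to 100 CPM and 17.2% from 100 CPM upward. The median standard error fell from 0.39 to 0.065 over the same classes, so that a small change could be seen only in a well counted transcript. The counting also bears on which genes could be seen. Genes with 1 RefSeq accession had a median of 366.5 counts per library among their tested accessions and 37% of these accessions were tested, whereas accessions of genes with more than 4 had a median of 19.5 counts and 3.94% were tested.

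Among called transcripts with a mean of at least 5 CPM the largest rise by fold was that of GP5, which encodes platelet glycoprotein V, a surface protein of the megakaryocyte lineage (chr3:194115550-194119995 in GRCh37). GP5 stood at 10.6, 6.28 and 8.89 CPM in shNS dex and at 53.1, 46.2 and 62.5 CPM in shG9a dex (log2 fold change 2.68 ± 0.27, adjusted p = 8.3e-07). All 3 shG9a libraries lay far above the controls. The same was seen in ethanol, from 33.4, 29.4 and 34 CPM to 101, 99.8 and 110 CPM (1.70 ± 0.23). Of the erythroid and megakaryocyte markers, PF4 was at 0 in all 6 dex libraries and ITGA2B stood at 0.86 to 1.37 CPM in shNS and 1.22 to 2.25 CPM in shG9a. GP9, a subunit of the same platelet receptor complex as GP5, was lower in all shG9a libraries, at 0.64 to 0.95 CPM in shNS and 0 to 0.26 CPM in shG9a, and was too rare to be tested.

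TUFM, the mitochondrial translation elongation factor Tu (chr16:28853732-28857669), had the lowest p of the comparison. It stood at 240, 242 and 269 CPM in shNS dex and at 767, 853 and 825 CPM in shG9a dex (1.70 ± 0.06, adjusted p = 5.6e-15). The rise was of like size in ethanol (1.59 ± 0.06). TUFM is present in all cells, and it is the abundant transcript with the largest fold rise among those named here.

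KCNJ2, an inward rectifier potassium channel (chr17:68164814-68176185), stood at 13.5, 14.7 and 11.3 CPM in shNS dex and at 37.3, 33.2 and 33.2 CPM in shG9a dex (1.39 ± 0.15, adjusted p = 2.71e-06). GZMA, the serine protease granzyme A of cytotoxic cells, was rare, at 1.84, 2.32 and 1.78 CPM, and stood at 8.82, 11.1 and 6.82 CPM in shG9a dex (2.16 ± 0.33, adjusted p = 0.000163). IL1B, the inflammatory cytokine interleukin-1β, stood at 4.24, 3.44 and 2.75 CPM and at 7.35, 11.2 and 6.47 CPM (1.29 ± 0.21, adjusted p = 0.000372). In each of these 3 genes the groups did not overlap. The sum of the 4 T-cell markers was 0 CPM in all shNS dex libraries and at most 0.086 CPM in shG9a dex.

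Other named rises of at least 2-fold above a mean of 5 CPM, besides ID3 (described with the ethanol comparison), were those of the phospholipid flippase gene ATP9A (1.16 ± 0.24), CTXN1 (1.11 ± 0.16), the lymphocyte surface antigen CD52 (1.10 ± 0.15), LRRC2 (1.22 ± 0.18) and the noncoding RNAs LINC02363 (1.20 ± 0.16) and LOC101927691 (1.31 ± 0.15). Beside LRRC2, the antisense RNA LRRC2-AS1, which lies on the opposite strand within that gene, stood at 0.46, 0.52 and 0.32 CPM in shNS dex and at 2.94, 3.31 and 2.45 CPM in shG9a dex (2.72 ± 0.29). How strand was handled in the counting is not given in the sources used here, so reads of LRRC2 and LRRC2-AS1 cannot be told apart. Of these genes, ATP9A and LINC02363 were not called without the replicate block (adjusted p = 0.0654 and 0.0766).

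Below a mean of 5 CPM, the rises that the choice of genes takes in were few in counts. H2AB2, a histone variant gene of the germline with near-identical copies, had no count in shNS dex and 12, 8 and 18 counts in shG9a dex, which is at least 4.10-fold higher when 3 counts per library are taken as the floor. KLHL33 had 2, 5 and 0 counts in shNS dex and 12, 16 and 22 in shG9a dex. An SLC20A2 transcript, of a phosphate transporter gene, had 1, 2 and 3 counts in shNS dex and 5, 8 and 12 in shG9a dex. The SLC20A2 call was lost in 4 of the 6 fits that left out 1 library.

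The largest changes in amount, in contrast, came from abundant transcripts that changed little in fold. B4GALT1, a galactosyltransferase of the Golgi, stood at 1692, 1640 and 1682 CPM in shNS dex and at 2451, 2202 and 2766 CPM in shG9a dex (0.56 ± 0.11, adjusted p = 0.00301). EEF1G, a translation elongation factor subunit, stood at 6252, 5793 and 5220 CPM and at 7008, 7854 and 6178 CPM (0.29 ± 0.06, adjusted p = 0.00292). The EEF1G groups overlapped, and without the replicate block it was not called (adjusted p = 0.226). LAPTM5, a lysosomal membrane protein of blood cells that dampens antigen receptor signalling, fell from 3962, 3914 and 3871 CPM to 2802, 2593 and 2733 CPM (-0.53 ± 0.07, adjusted p = 1.32e-05).

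Further abundant falls were those of AEBP1 (-0.45 ± 0.10), the nonmuscle myosin gene MYH9 (-0.36 ± 0.08), the cold-inducible RNA-binding protein gene RBM3 (-0.51 ± 0.05), ADPRHL1 (-0.38 ± 0.07), the antiproliferative gene BTG1 (-0.35 ± 0.08) and B2M, the light chain of MHC class I (-0.25 ± 0.06). B2M was lost in 4 of the 6 fits without 1 library. Without the replicate block AEBP1, MYH9, BTG1 and B2M were not called (adjusted p = 0.217, 0.312, 0.0723 and 0.18).

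Among the falls by fold, several were of genes that dex induces. In shGLP and shHP1g cells, which are not part of the comparison, dex raised KLF2 by 3.12, SOCS1 by 1.90 and LINGO3 by 1.85 on the log2 scale. KLF2, a zinc finger transcription factor of lymphocyte quiescence (chr19:16435637-16439496), stood at 40.1, 45.1 and 40.3 CPM in shNS dex and at 17.1, 16.1 and 12.2 CPM in shG9a dex (-1.50 ± 0.30, adjusted p = 0.00253). In ethanol it was at 2.17, 3.31 and 3.74 CPM in shNS and at 1.46, 1.12 and 1.08 CPM in shG9a. SOCS1, a feedback inhibitor of cytokine signalling (chr16:11348274-11350061), stood at 33.0, 34.1 and 38.1 CPM in shNS dex and at 14, 17.1 and 13 CPM in shG9a dex (-1.26 ± 0.15, adjusted p = 6.21e-06). In each gene the induced level was lower in all 3 shG9a libraries.

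LINGO3, a leucine-rich repeat membrane protein gene, stood at 14.5, 13.2 and 12.5 CPM in shNS dex and at 5.54, 4.10 and 3.50 CPM in shG9a dex (-1.63 ± 0.19, adjusted p = 5.54e-06). FGD2, an exchange factor for the small GTPase Cdc42, fell by 1.32 on the log2 scale, as did IQGAP2, a scaffold of the cytoskeleton, PWWP2B fell by 1.20 and TFAP2C, a transcription factor of the AP-2 family, fell by 1.18. The noncoding RNA LINC00689 fell by 1.23. TFAP2C and LINC00689 were not called without the replicate block (adjusted p = 0.0969 and 0.0554).

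LCN6, a lipocalin gene, fell from 49.7, 43.8 and 48.7 CPM to 16.4, 21.1 and 17.6 CPM (-1.37 ± 0.12, adjusted p = 1.24e-07), and its neighbour LCN10 fell by 1.25. LCN6 (chr9:139638469-139642977) and LCN10 (chr9:139632619-139637808) lie side by side on the minus strand, and the noncoding RNA LOC100128593 fell by 1.23. Annotation places a further gene across LCN6 and LCN10, so the counts of the 2 lipocalins may share reads. LCN6 was also lower in ethanol, at 11.0 to 12.1 CPM against 24 to 26.1 CPM.

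Among the rare RNAs that fell, CST7, which encodes the cysteine protease inhibitor cystatin F, had 32, 43 and 42 counts in shNS dex and 1, 9 and 9 in shG9a dex (-2.69 ± 0.37, adjusted p = 4.3e-05). LINC01602 had 7, 7 and 6 counts in shNS dex and 1, 0 and 0 in shG9a dex. TDRD9, a germline helicase gene, fell from 2.12, 1.98 and 1.94 CPM to 0.35, 0.79 and 0.52 CPM (-1.84 ± 0.39). RMRP, the RNA of the RNase MRP complex, was called at -2.82 ± 0.77 (adjusted p = 0.0229). It had 551, 60 and 63 counts in shNS dex and 22, 26 and 27 in shG9a dex, so that 1 control library stood far above the others. Without shNS dex replicate 1 the log2 fold change was -1.84 and was not called (adjusted p = 0.234), and RMRP was not called without shG9a dex replicate 1 (0.153) or without the replicate block (0.0799).

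**Figure D2:**
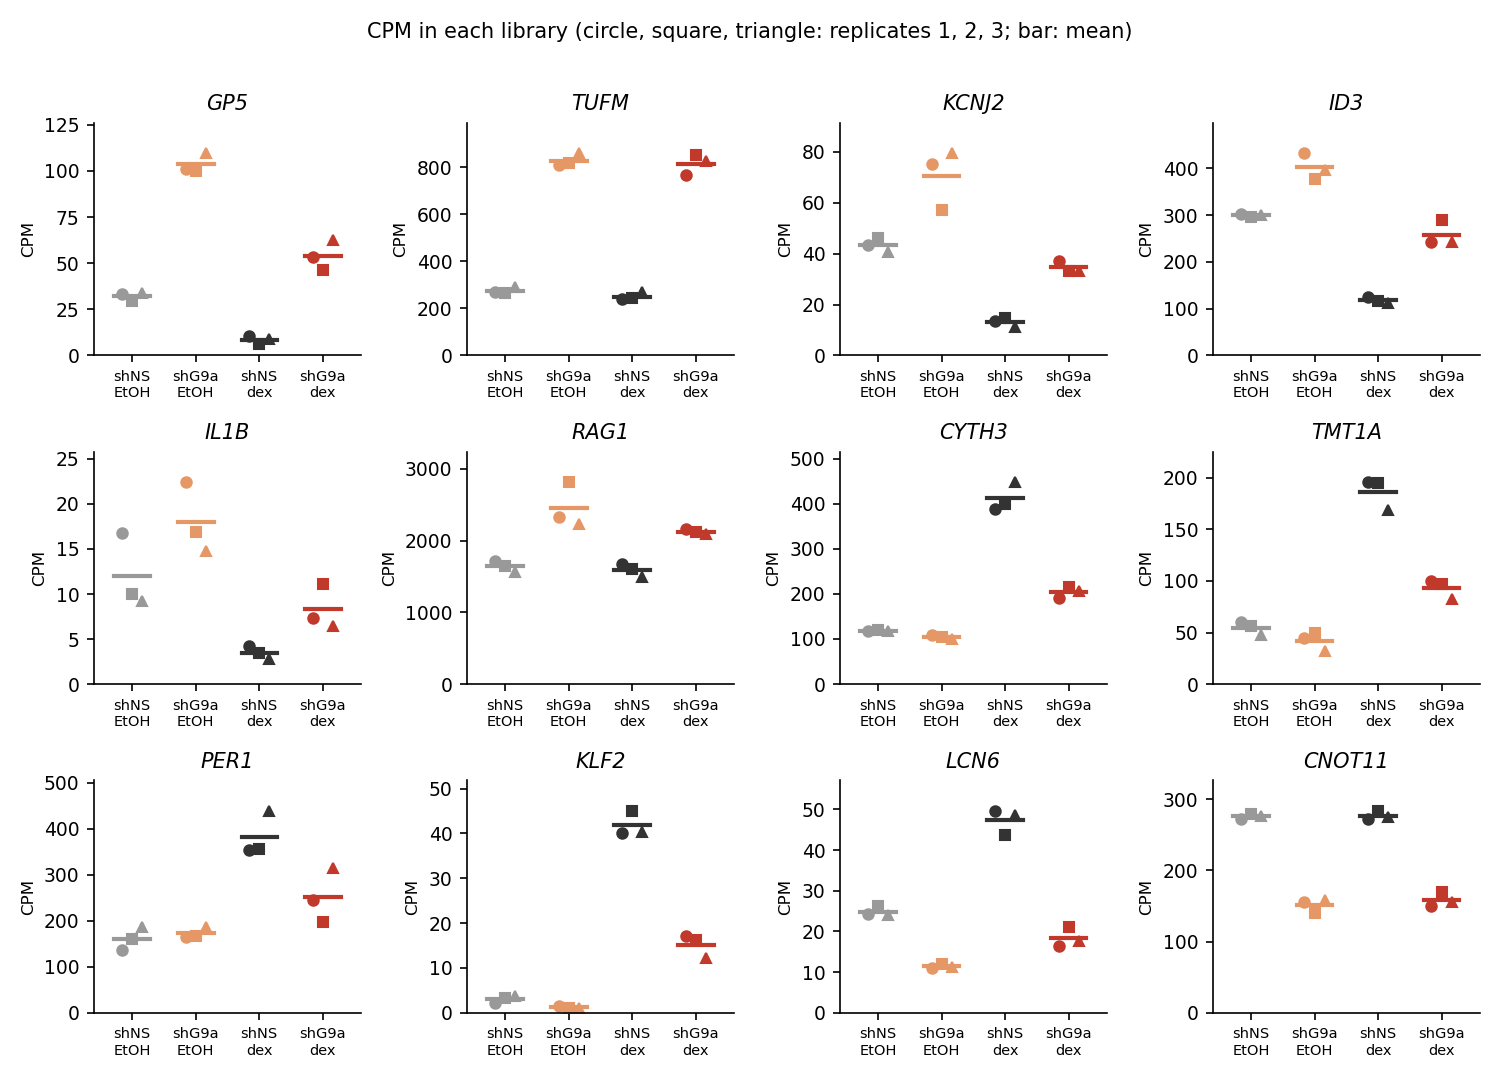
Levels in CPM (vertical axes, starting at 0) of 12 genes in shNS and shG9a cells in ethanol and in dex, with circles, squares and triangles for replicates 1, 2 and 3 and a bar at the mean of 3. GP5, TUFM and ID3 stand higher in shG9a in both treatments, CNOT11 and LCN6 stand lower in both, and CYTH3 and PER1 stand clearly lower in shG9a in dex, where each shG9a library lies below each control.

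Transcripts that dex induced were often lower, and transcripts that dex repressed often higher, after G9a depletion. The dex targets were taken from the shGLP and shHP1g cells, whose 12 libraries are not among the 6 compared here. In those cells 440 transcripts were higher (4.33%) and 532 lower (5.23%) in dex than in ethanol, together 9.56% of those tested. Of the 440 induced by dex, 122 were lower in shG9a dex cells than in shNS dex cells (27.7%, against 4.43% of all tested) and 9 were higher. Of the 532 repressed by dex, 110 were higher (20.7%, against 4.38% of all tested) and 12 were lower. These shares were not matched for level, and 17.2% of all transcripts from 100 CPM upward were called in either direction. Of the 105 induced at least 2-fold, 33 were lower (31.4%) and 0 were higher in this edgeR test, with a median log2 fold change of -0.50. This way of choosing dex targets was added after the data had been seen.

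Most of the calls were nevertheless at transcripts without a dex call by this measure. The 9195 transcripts with no dex call in shGLP and shHP1g cells are most of the 10167 tested. They held 326 of the rises and 316 of the falls, together 71.7% of all calls. Of these 9195, 3.55% were higher and 3.44% lower, against 4.38% and 4.43% of all tested. No dex call does not show that a response was absent. The study reports lower dex-induced levels of some targets after GLP or HP1γ depletion, and this measure may miss such targets. Without shG9a dex replicate 2, 110 of the 440 dex-induced transcripts were lower and 69 of the 532 dex-repressed transcripts were higher. When the dex targets were also chosen again without that library, the shares were 22.6% and 11.2%, and the second share was 12.2% without shNS dex replicate 2 and 11.4% without shNS dex replicate 3. CNOT11, TUFM, KIF1B and RAG1 are examples of called genes for which the dex response in shGLP and shHP1g cells was -0.01, -0.10, -0.02 and 0.03 on the log2 scale. TUFM also stood above shNS dex in shGLP and shHP1g dex cells, as given below, so its rise was not particular to shG9a.

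A list of 40 glucocorticoid receptor targets, 36 of them tested as 48 transcripts, held 3 rises, 16 falls and 29 transcripts that were not called. This is 39.6% called, against 8.8% of all tested (4.38% higher and 4.43% lower). The list was drawn in part from genes the study chose on these samples, so it is not independent evidence of a direction. Its median log2 fold change was -0.28, against 0.003 over all tested. TSC22D3, which encodes the glucocorticoid-induced leucine zipper and was named after its values had been seen, fell by 0.97 ± 0.13 on the log2 scale (NM_004089, adjusted p = 4.3e-05). It was also lower in ethanol (-1.39, adjusted p = 0.000599). Rarer TSC22D3 transcripts were not called in dex (-1.17 and -1.56, adjusted p = 0.0739 and 0.068). The growth inhibitor BTG2 fell from 572, 576 and 559 CPM to 322, 413 and 296 CPM (-0.74 ± 0.10), and was also lower in ethanol (-0.53, adjusted p = 0.00323). In ethanol the whole list held 1 rise and 3 falls. In dex KLF13 fell by 0.56 and NFKBIA, the inhibitor of NF-kappaB, fell by 0.36. TXNIP, which binds thioredoxin and slows glucose uptake, stood at 70.8, 70.7 and 58.9 CPM and at 43.4, 43.1 and 30.9 CPM (-0.78 ± 0.09). The 3 rises in the list were ID3, SLC20A2 and the rarer of the tested MXI1 transcripts. DUSP1, a receptor target that removes phosphate from MAP kinases, stayed within error (0.01 ± 0.10).

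**Figure D3:**
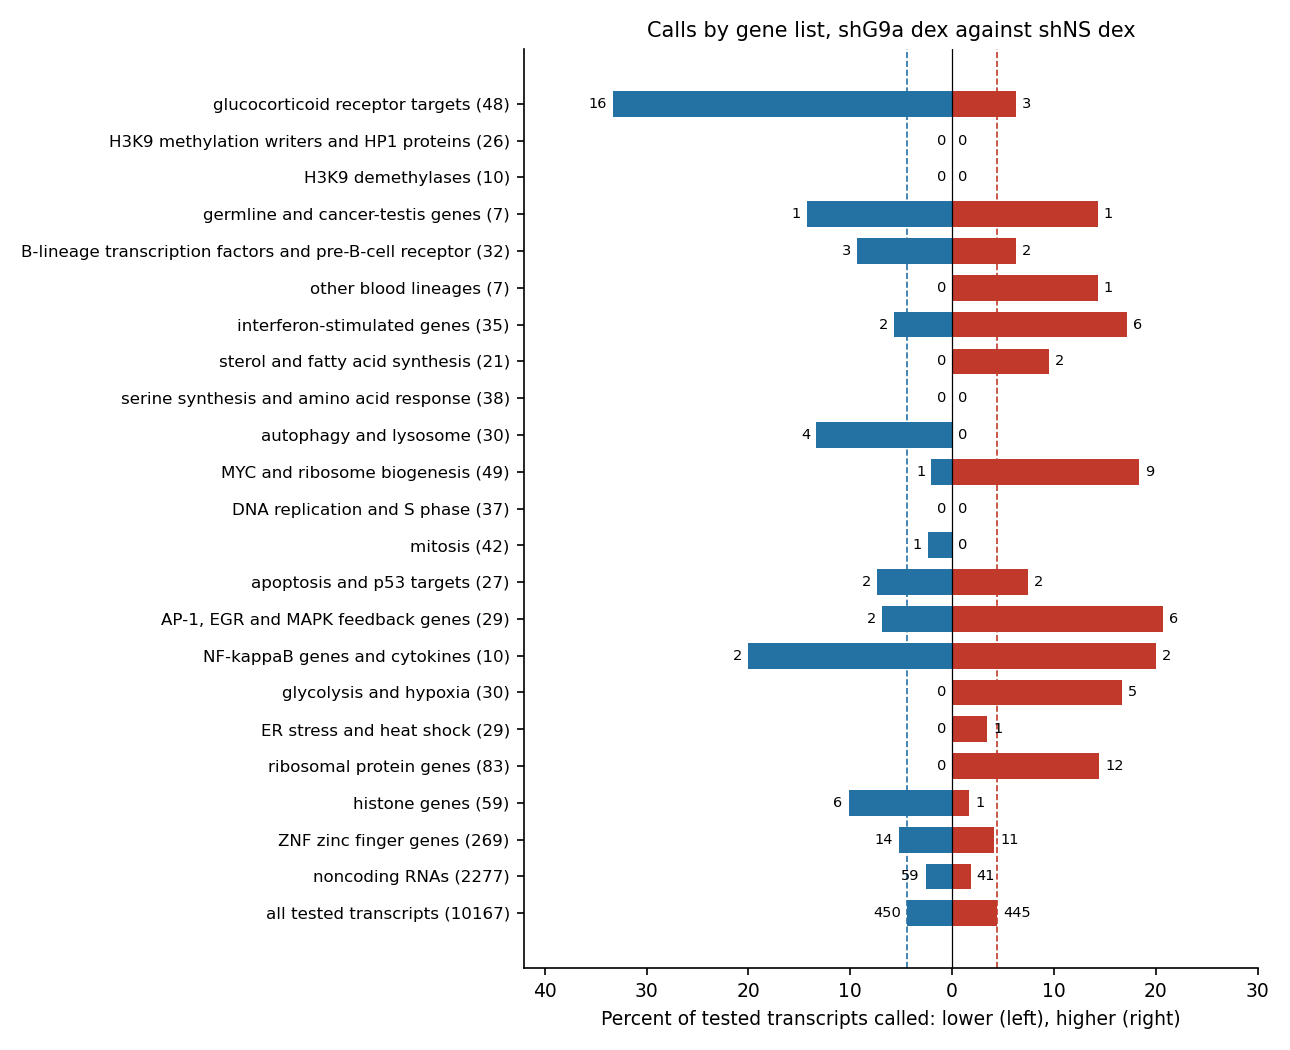
Percent of tested transcripts of each gene list called lower (bars to the left) and higher (bars to the right) in shG9a dex cells, with dashed lines at the 4.43% and 4.38% of all tested transcripts. The glucocorticoid receptor targets have the longest bar to the left, with 16 of 48 lower.

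Of 32 transcripts of B-lineage transcription factors and pre-B-cell receptor genes, 2 rose, 3 fell and 27 were not called (15.6% called, against 8.8% of all tested), with a median of -0.18. RAG1, which cuts DNA in V(D)J recombination (chr11:36531922-36614706), stood at 1676, 1600 and 1488 CPM in shNS dex and at 2157, 2121 and 2096 CPM in shG9a dex (0.42 ± 0.10, adjusted p = 0.013). Its partner RAG2, at a mean of 3.83 CPM, fell by 1.05 ± 0.23 (adjusted p = 0.00561). RAG1 was not called without shNS dex replicate 2 (adjusted p = 0.0528) or 3 (0.0671), and RAG2 was not called without shNS dex replicate 3 (0.0554).

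CD72, an inhibitory coreceptor of B cells, fell from 260, 232 and 203 CPM to 145, 175 and 110 CPM (-0.70 ± 0.11), a call lost without the replicate block (adjusted p = 0.0635). FOXO1, a transcription factor of early B cells that was named after its values had been seen, fell by 0.29 and was not called without shG9a dex replicate 2 (adjusted p = 0.111). CD52 was the other rise in the list, from 5.06, 4.39 and 3.07 CPM to 9.08, 10.5 and 7.08 CPM. Of 7 transcripts of other blood lineages, GP5 alone was called (14.3%, against 8.8% of all tested).

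Of 29 transcripts of AP-1, EGR and MAPK feedback genes, many of them immediate early genes that respond first to growth signals, 6 rose and 2 fell, with a median of 0.14. This is 27.6% called, against 8.8% of all tested (4.38% higher and 4.43% lower). JUN, a subunit of the transcription factor AP-1, stood at 75.9, 54.6 and 48.3 CPM and at 115, 104 and 80.6 CPM (0.76 ± 0.12, adjusted p = 0.000163). The groups did not overlap, but without the replicate block JUN was not called (adjusted p = 0.136). IER2 rose by 0.37 ± 0.07 and SPRY2, an inhibitor of receptor tyrosine kinase signalling, rose by 0.58 ± 0.14, while the MAP kinase phosphatase gene DUSP7 fell by 0.26. Without shG9a dex replicate 2 the list held 4 rises and 1 fall. Of 10 transcripts of NF-kappaB genes and cytokines, IL1B and TNFSF9, a ligand of the TNF family (0.58 ± 0.12), rose and NFKBIA and ICAM1, an adhesion molecule, fell (-0.36 and -0.29). In that list 40% were called. Without the replicate block SPRY2, DUSP7, TNFSF9 and ICAM1 were not called (adjusted p = 0.0608, 0.245, 0.115 and 0.267).

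Interferon-stimulated genes went both ways. Of 35 transcripts 6 rose and 2 fell (22.9% called, against 8.8% of all tested), with a median of 0.04. GBP1, a guanylate-binding protein, stood at 24.3, 24.3 and 20.4 CPM and at 38.5, 48.9 and 31.7 CPM (0.78 ± 0.10, adjusted p = 1.64e-05). OAS2, a sensor of double-stranded RNA with 3 of the 6 called transcripts, rose by 0.32 ± 0.07 in its most abundant form, a call lost without the replicate block (adjusted p = 0.168). LGALS3BP, a secreted glycoprotein, fell by 0.57 ± 0.08. Without shG9a dex replicate 2 the list held 4 rises and 3 falls.

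Of 30 transcripts of glycolysis and hypoxia genes 5 rose and none fell (16.7% called, against 8.8% of all tested), with a median of 0.15. Among them ENO2, an enolase, stood at 23.1, 19.0 and 18.4 CPM and at 37.4, 39.2 and 28 CPM (0.78 ± 0.12, adjusted p = 0.000224), and the glucose transporter SLC2A3 rose by 0.58 ± 0.15. ERO1A, an oxidase of the endoplasmic reticulum, rose by 0.32 ± 0.06. MXI1, which antagonizes MYC, rose by 1.14 ± 0.31 in a rare transcript (mean 1.71 CPM). A more abundant MXI1 transcript (4.03 CPM) was not called (0.77, adjusted p = 0.076). FAM162A, named after its values had been seen, rose by 0.38. The calls of SLC2A3 and MXI1 were each lost in 3 of the 6 fits without 1 library and without the replicate block (adjusted p = 0.222 and 0.0519). In the sterol and fatty acid list SQLE, an enzyme of cholesterol synthesis (0.26 ± 0.05), and HSD17B7 (0.30 ± 0.09) rose and 19 of 21 transcripts were not called (9.52% called, close to the 8.8% of all tested). HSD17B7 was lost without the replicate block (adjusted p = 0.162).

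Of 30 transcripts of autophagy and lysosome genes none rose and 4 fell (13.3% called, against 8.8% of all tested), with a median of -0.08. The lysosomal protease CTSD fell from 271, 254 and 267 CPM to 207, 180 and 223 CPM (-0.38 ± 0.06, adjusted p = 0.000181). LAMP2 (-0.47), MAP1LC3B (-0.29) and GABARAPL1 (-0.80), which act in the lysosomal membrane and in autophagosomes, were the others, and each was lost in at least 2 of the 6 fits without 1 library and without the replicate block (adjusted p = 0.0583, 0.141 and 0.206). BCL2, which blocks apoptosis, stood at 211, 215 and 217 CPM and at 284, 229 and 280 CPM (0.30 ± 0.07, adjusted p = 0.00622). In the list of apoptosis genes and p53 targets BCL2 and PLK3 (0.33) rose and BTG2 and BIRC2 (-0.63) fell, with 23 of 27 transcripts not called (14.8% called). PLK3 and BIRC2 were not called without the replicate block (adjusted p = 0.0834 and 0.124), and were lost in 2 and 5 of the 6 fits without 1 library.

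None of 38 transcripts of serine synthesis and the amino acid response and none of 37 of DNA replication was called by edgeR. Over all tested 8.8% were called. Of 42 transcripts of mitosis 1 was called (2.38%), BUB3, a protein of the spindle checkpoint (-0.43 ± 0.10), which was lost without shG9a dex replicate 2 (adjusted p = 0.0664). Of 29 of the ER stress and heat shock response 1 was called (3.45%), MANF (0.30 ± 0.09), lost in the same way (adjusted p = 0.237). Of 7 transcripts of germline genes, H2AB2 rose and TDRD9 fell (28.6% called). Zinc finger genes of the ZNF family held 11 rises and 14 falls of 269 transcripts (9.29% called, close to the 8.8% of all tested), and noncoding RNAs held 41 rises and 59 falls of 2277 (4.39% called). Named among the ZNF genes were ZNF626 (-1.50 ± 0.23), ZNF329 (-1.14 ± 0.16), ZNF134 (-0.54 ± 0.08) and ZNF681 (-0.52 ± 0.10). ADCY10P1, a pseudogene RNA, rose by 0.98 ± 0.10 and LINC02422 fell by 1.03 ± 0.19.

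Of 83 ribosomal protein transcripts 12 rose and none fell (14.5% called), and of 49 transcripts of MYC and ribosome biogenesis genes 9 rose and 1 fell (20.4% called), with medians of 0.15 in both. Over all tested 8.8% were called, and 17.2% of those from 100 CPM upward. RPL35 stood at 2120, 2242 and 2075 CPM in shNS dex and at 2491, 3680 and 2306 CPM in shG9a dex (0.38 ± 0.09), and NCL, the nucleolar protein nucleolin, at 3517, 3794 and 3945 CPM and at 3967, 5069 and 4344 CPM (0.25 ± 0.07). Without the replicate block neither was called (adjusted p = 0.069 and 0.234). In both genes shG9a replicate 2 was the highest of the 6. With this library left out, the ribosomal protein list held 8 rises and 2 falls with a median of 0.06, and the biogenesis list held 3 rises and 1 fall with a median of 0.16, while 5.57% of all tested were called.

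Of 59 histone transcripts, which mostly encode RNAs without a poly(A) tail, 6 fell and 1 rose, and 3 of 59 were fitted above 0, with a median of -0.60 (11.9% called, against 8.8% of all tested). Without shG9a dex replicate 2 the list held 2 falls and 0 rises by edgeR, and its median was -0.53. H3C2 stood at 6.54, 2.06 and 1.37 CPM in shNS dex and at 0.95, 0.58 and 0.79 CPM in shG9a dex (-1.99 ± 0.56), and H4C13 fell by 2.23 ± 0.63. In H3C2 the first control library was the highest. Both calls were lost in 5 of the 6 fits without 1 library and without the replicate block (adjusted p = 0.238 and 0.226).

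shG9a dex replicate 2 stood apart from the 23 other libraries. The spread of its transcripts about their group mean was 0.269 on the log2 scale, against 0.141 to 0.245 elsewhere. It was the deepest library, with 14387770 counts, and ribosomal protein transcripts held 14.4% of its counts against 8.64% to 11.98% in the others. Of 41 ribosomal protein transcripts of at least 20 CPM, 37 were higher in it than in replicates 1 and 3, by a median of 0.52 on the log2 scale. Of 3869 transcripts of at least 20 CPM, 43 were lower in it by more than 2-fold and 3 were higher, and 21 of the 43 carried noncoding accessions. MTRNR2L transcripts, which copy mitochondrial ribosomal RNA, held 0.0065% of its counts against 0.04374% to 0.05595% elsewhere. The part of these differences in the results was not tested.

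Left out, this library changed the number of calls. Without it 566 transcripts were called (5.57% of those tested), 264 higher (2.6%) and 302 lower (2.97%). Of the 895, 484 were kept (54.1%), 226 higher and 258 lower, 411 were lost and 82 were called only without it. None of the 895 changed sign, but both fits share every other library, so a kept sign is not independent support. The median absolute log2 fold change was 0.42 among the kept and 0.37 among the lost, and 65 of the 105 changes of at least 2-fold were kept. Leaving out 1 control library had an effect of like size, with 570, 416 and 489 calls without shNS dex replicates 1, 2 and 3, while 947 and 911 were called without shG9a dex replicates 1 and 3. With all 8 libraries of replicate 2 or of replicate 3 left out, 326 and 157 were called. Of the 108 called transcripts chosen by the naming rule, 77 were called without each of the 6 libraries in turn and 31 were lost without at least 1.

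**Figure D4:**
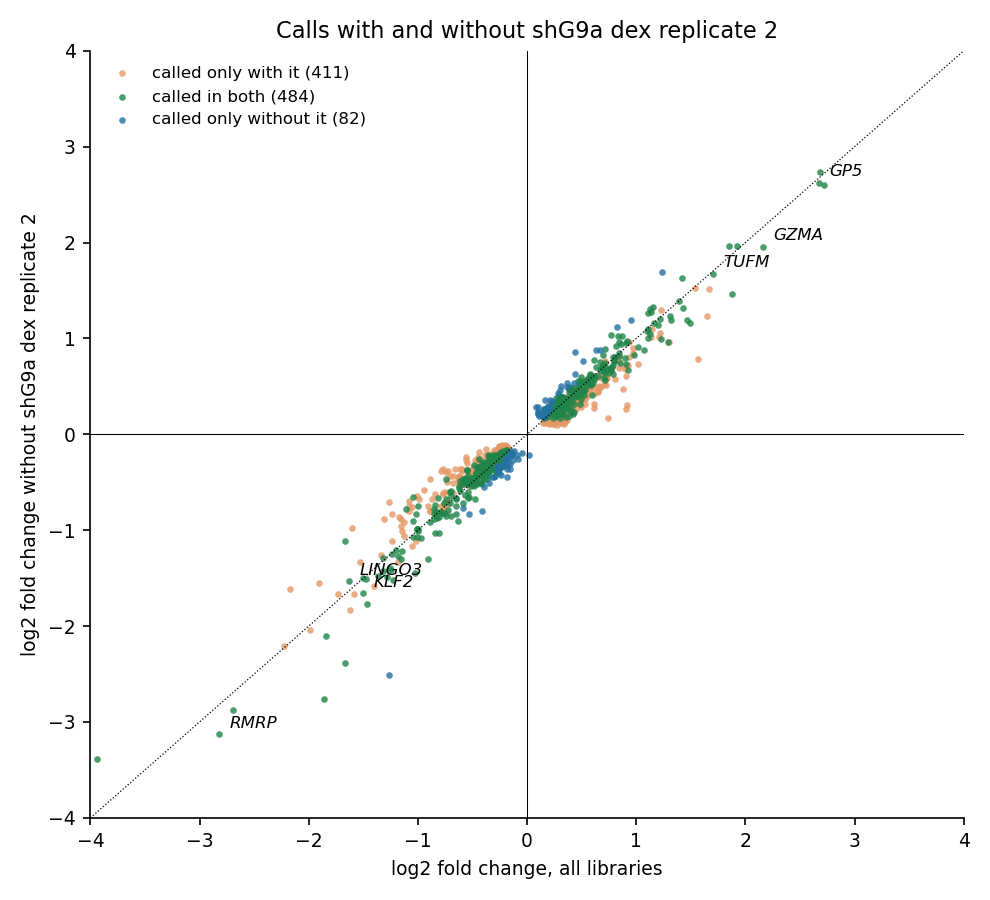
Log2 fold change of shG9a over shNS in dex from all libraries (horizontal axis) and without shG9a dex replicate 2 (vertical axis). Coloured points are the 484 transcripts called in both fits, the 411 called only with it and the 82 called only without it, and the changes lie along the line of equality, with 1 transcript outside the axes.

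In ethanol the same hairpin gave 379 calls (3.73% of those tested), with 162 rises (1.59%) and 217 falls (2.13%), a share of 42.7% higher. With the scaling by TMM the split was 191 rises and 145 falls (56.8% higher). The ethanol libraries are not shared with the comparison in dex. Without single libraries the ethanol calls fell to between 190 and 267, with 193 and 248 without shG9a ethanol replicates 2 and 3 and 205, 192 and 190 without shNS ethanol replicates 1, 2 and 3. Of the 895 transcripts called in dex, 245 were also called in ethanol, 244 of them with the same sign, which is 27.4% of the dex calls and 64.6% of the ethanol calls. In sign alone, 818 of the 895 matched (91.4%, against 64.1% of all tested). The median ethanol change was 0.18 for the dex rises and -0.22 for the dex falls. Over the 5569 transcripts with a mean of at least 5 CPM, the fold changes in dex and ethanol had a Pearson r of 0.633, across transcripts that share libraries and are not independent replicates. Of the 411 calls lost without shG9a dex replicate 2, 356 had the same sign in ethanol, as had 462 of the 484 that were kept.

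Whether the effect of depletion differed between dex and ethanol was tested as an interaction in the same fit. It was called for 9 transcripts (0.0885% of those tested), 1 with a more positive change in dex (0.00984%) and 8 with a more negative one (0.0787%), and 686 had an unadjusted p under 0.05. Across other settings, and with single libraries or whole replicate numbers left out, the number of calls ran from 0 to 63. The 0 came without all libraries of replicate 2 or of replicate 3. Without those of replicate 1, 3 calls were positive and 1 was negative. With single libraries left out the number of calls was 3 to 13. It was 3 to 5 without shG9a dex replicate 1, shNS dex replicate 3, shG9a ethanol replicate 1 or 2, or shNS ethanol replicate 2 or 3. The median standard error of the interaction was 0.25 on the log2 scale.

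ID3, an inhibitor of helix-loop-helix transcription factors that dex represses, was the positive one. It stood at 302, 296 and 300 CPM in shNS and at 433, 377 and 397 CPM in shG9a cells in ethanol, and at 126, 117 and 112 CPM and at 243, 289 and 243 CPM in dex. The change was 0.43 ± 0.09 in ethanol and 1.13 ± 0.07 in dex, an interaction of 0.70 ± 0.09 (adjusted p = 0.00185). The groups did not overlap in either treatment. In shGLP and shHP1g cells dex changed ID3 by -0.84 on the log2 scale.

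CYTH3, an exchange factor for the small GTPases of the ARF family, stood at 118, 120 and 118 CPM in shNS and at 109, 104 and 99.0 CPM in shG9a cells in ethanol, and at 387, 400 and 448 CPM and at 192, 216 and 206 CPM in dex. The change in dex was -1.01 ± 0.09 and the interaction -0.81 ± 0.12 (adjusted p = 0.00344). PER1, a repressor of the circadian clock, stood at 137, 160 and 186 CPM and at 166, 166 and 186 CPM in ethanol, and at 353, 355 and 439 CPM and at 245, 196 and 314 CPM in dex (interaction -0.72 ± 0.11, adjusted p = 0.00344). The ethanol levels of PER1 overlapped, and in dex all 3 shG9a libraries were below all 3 controls. ID3, CYTH3 and PER1 were called in all 12 fits without 1 of the libraries, and ID3 and CYTH3 also without the replicate block (adjusted p = 0.0107), where PER1 was not (0.999).

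KCNK3, a potassium leak channel, stood at 6.78, 8.75 and 12.4 CPM in shNS and at 7.12, 8.69 and 15.1 CPM in shG9a cells in ethanol, and at 29.1, 39.7 and 45.8 CPM and at 15.3, 18.5 and 31.3 CPM in dex. The dex groups overlapped, as shG9a replicate 3 lay above shNS replicate 1, and within each of the 3 replicate numbers shG9a was lower. The interaction was -0.99 ± 0.17 (adjusted p = 0.0143). Without the replicate block neither the change in dex (adjusted p = 0.175) nor the interaction (0.999) was called.

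The others were DISP3 (-0.82 ± 0.14), a sterol-sensing domain protein, the noncoding RNA CERNA2 (-1.23 ± 0.21) and TMT1A (-0.62 ± 0.11), a methyltransferase of small thiols. Named after their values had been seen were DEPP1 (-1.10 ± 0.21), a gene under FOXO control, and BTNL9 (-0.72 ± 0.14), of the butyrophilin family. The change of DEPP1 in dex alone was not called, and ran from -0.53 to -0.26 with single libraries of the comparison left out. That of BTNL9 ran from -0.36 to -0.26, and its call in dex was lost in 5 of these 6 fits. TMT1A stood at 196, 194 and 169 CPM in shNS dex and at 99.5, 97 and 82.3 CPM in shG9a dex (-1.01 ± 0.07, adjusted p = 6.19e-09). The interactions of KCNK3, DISP3, CERNA2, TMT1A, DEPP1 and BTNL9 were lost in 5, 5, 4, 6, 7 and 10 of the 12 fits without 1 library.

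**Figure D5:**
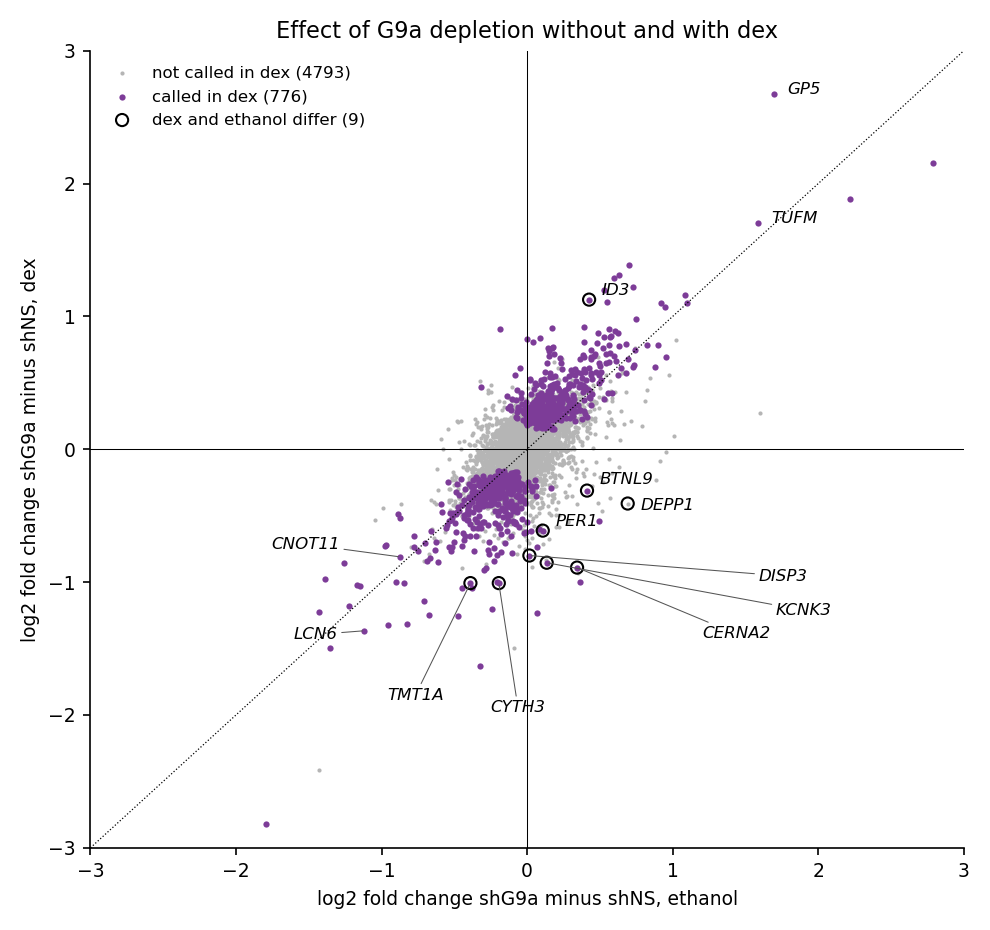
Log2 fold change of shG9a over shNS in ethanol (horizontal axis) and in dex (vertical axis) for transcripts with a mean of at least 5 CPM, with those called in dex coloured. The dotted line marks equal change, and the 9 circled transcripts, at which the change differed between treatments, lie off it, with ID3 above and the 8 others below.

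The promoters of 4 genes whose levels are given above in both treatments are shown: ID3, PER1 and KCNK3, which had an interaction, and GP5, the largest called rise by fold at a mean of at least 5 CPM, whose interaction was not called. Each is the 250 bases before the transcription start in RefSeq (GRCh38.p14), matched once and exactly in GRCh37, written 5′ to 3′ on the strand of the gene. They lie at chr1:23885993-23886242 (minus strand), chr17:8055723-8055972 (minus), chr2:26915340-26915589 (plus) and chr3:194119996-194120245 (minus). Capitals mark matches to AGAACA, a glucocorticoid receptor half-site, or to CACGTG, an E-box, which were searched on both strands.
ID3: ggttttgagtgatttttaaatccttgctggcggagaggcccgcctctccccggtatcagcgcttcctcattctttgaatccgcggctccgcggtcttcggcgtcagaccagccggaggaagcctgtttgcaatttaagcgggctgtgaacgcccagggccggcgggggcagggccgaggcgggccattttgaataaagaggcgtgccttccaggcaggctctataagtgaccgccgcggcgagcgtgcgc
PER1: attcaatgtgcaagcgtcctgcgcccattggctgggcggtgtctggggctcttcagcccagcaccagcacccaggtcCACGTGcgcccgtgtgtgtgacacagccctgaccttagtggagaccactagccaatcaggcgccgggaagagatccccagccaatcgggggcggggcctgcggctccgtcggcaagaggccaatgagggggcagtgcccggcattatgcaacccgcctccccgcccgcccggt
KCNK3: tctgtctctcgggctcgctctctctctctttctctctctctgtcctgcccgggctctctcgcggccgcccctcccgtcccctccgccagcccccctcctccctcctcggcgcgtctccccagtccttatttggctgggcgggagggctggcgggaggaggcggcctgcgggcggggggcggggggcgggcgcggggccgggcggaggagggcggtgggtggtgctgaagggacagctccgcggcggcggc
GP5: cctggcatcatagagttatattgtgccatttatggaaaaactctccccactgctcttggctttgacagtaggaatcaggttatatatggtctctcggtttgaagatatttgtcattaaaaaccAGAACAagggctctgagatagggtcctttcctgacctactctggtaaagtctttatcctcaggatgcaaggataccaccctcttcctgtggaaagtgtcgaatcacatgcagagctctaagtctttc
The PER1 promoter held CACGTG at -173 to -168 and the GP5 promoter AGAACA at -127 to -122 from the start, and the other windows held neither. Over 35116 promoters of RefSeq, the same windows held AGAACA in 12.4% and CACGTG in 6.34%, and a match is a description of the letters and not of a bound site.

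The last question was how shG9a cells differed from cells depleted of GLP or HP1γ in the same dex treatment, by direct contrasts. Against shGLP 876 transcripts were called (8.62% of those tested), 387 higher (3.81%) and 489 lower (4.81%) in shG9a. The higher ones were 44.2% of the calls, and by TMM 55.8% were higher. Against shHP1g 654 were called (6.43%), 265 higher (2.61%) and 389 lower (3.83%). The higher ones were 40.5% of the calls, and by TMM 53.2% were higher. Without shG9a dex replicate 2 the numbers were 557 and 389, and without the replicate block 387 and 243. Against shGLP they were 533 and 477 without shGLP dex replicates 1 and 2, and against shHP1g 416 without shHP1g dex replicate 2. These 2 contrasts share the 3 shG9a dex libraries.

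CNOT11, a subunit of the CCR4-NOT deadenylase (chr2:101869348-101886778), differed in shG9a cells from both. It stood at 272, 284 and 275 CPM in shNS dex, at 149, 169 and 155 CPM in shG9a dex, at 279, 293 and 294 CPM in shGLP dex and at 261, 274 and 284 CPM in shHP1g dex. The direct contrasts were -0.87 ± 0.05 against shGLP and -0.79 ± 0.05 against shHP1g (adjusted p = 5.4e-10 and 2.4e-09). In ethanol CNOT11 was lower by a like amount (-0.87 ± 0.05).

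The kinesin gene KIF1B (-0.74 ± 0.06 against shNS), RBM3 and PROSER1 (-0.47 ± 0.05) were likewise lower than in both. Against shGLP their contrasts were -0.61, -0.67 and -0.58, and against shHP1g -0.78, -0.47 and -0.66. LGALS3BP stood at 145, 139 and 141 CPM in shNS dex, 105, 83.4 and 97.3 CPM in shG9a dex and 207, 235 and 224 CPM in shGLP dex, so it was lower with shG9a and higher with shGLP (contrast -1.22 ± 0.08, adjusted p = 1.3e-09). APCDD1, an inhibitor of Wnt signalling, had a contrast of -0.85 ± 0.06 against shGLP.

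GP5 was higher in shG9a than in shGLP (1.80 ± 0.25, adjusted p = 4.9e-05) and than in shHP1g cells (1.34 ± 0.24, adjusted p = 0.0011), where it stood at 13.8 to 16.6 CPM and 12.9 to 38.0 CPM. TMT1A was lower than in both (-0.79 ± 0.07 and -0.63 ± 0.07). GZMA did not differ beyond error from shGLP (-0.14 ± 0.27), at 10.1, 10.9 and 8.49 CPM, and was higher than in shHP1g (2.37 ± 0.34, adjusted p = 9e-05), at 3.10, 1.06 and 1.13 CPM.

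TUFM and CYTH3 showed no called difference from either. TUFM stood at 707, 759 and 748 CPM in shGLP dex and at 659, 794 and 824 CPM in shHP1g dex, with contrasts of 0.14 ± 0.06 and 0.11 ± 0.06. CYTH3 stood at 193, 184 and 201 CPM and at 210, 181 and 209 CPM, with contrasts of 0.09 ± 0.09 and 0.04 ± 0.09. An uncalled contrast of this size does not show equal levels.

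Of the 4 called ZNF genes named above, 3 differed from both other depletions. ZNF134 stood at 89.4, 91.9 and 86.0 CPM in shNS dex, 62.4, 67.7 and 53.9 CPM in shG9a dex, 35.9, 41.1 and 34.3 CPM in shGLP dex and 110, 118 and 109 CPM in shHP1g dex. It was higher in shG9a than in shGLP (0.72 ± 0.09, adjusted p = 9e-06) and lower than in shHP1g (-0.88 ± 0.08, adjusted p = 3e-07). ZNF329 (0.90 ± 0.20 and -1.25 ± 0.16) and ZNF681 (0.37 ± 0.10 and -0.84 ± 0.10) were likewise higher than in shGLP and lower than in shHP1g. ZNF626 was lower than in shHP1g (-2.41 ± 0.21) and had no called contrast with shGLP (0.85 ± 0.32, adjusted p = 0.099).

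Other genes set shG9a apart from another depletion without a called change from shNS. CD180, a Toll-like receptor homologue of B cells, stood at 32.8, 28.4 and 24 CPM in shNS dex, at 31.4, 33.5 and 26.3 CPM in shG9a dex and at 92.0, 87.7 and 68.1 CPM in shGLP dex (contrast -1.43 ± 0.07, adjusted p = 1.8e-11). RRAGD, a small GTPase of amino acid sensing (0.89 ± 0.06), the phosphatase subunit PPP6R1 (0.74 ± 0.06) and the paralogs NOMO1 (0.65 ± 0.06) and NOMO3 (0.67 ± 0.06), whose near-identical copies may share reads, were higher than in shGLP. ADAMTS17, a secreted metalloprotease, was higher than in shGLP by 1.04 ± 0.07 and was called against shNS only just (0.23 ± 0.07, adjusted p = 0.0488). Against shHP1g, LINC01694 (-1.28 ± 0.09) and LOC440570 (-1.15 ± 0.09) were lower, and ERGIC2, of the early secretory pathway (0.56 ± 0.08), and PGBD5, a transposase-derived gene (0.45 ± 0.05), were higher.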

How the data were processed

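Nalm6 cells with lentiviral hairpins received dex (100 nM, 8 h) or its vehicle, and RNA-seq libraries were made from 3 replicates of each of the 8 groups. According to the study's methods, the authors trimmed paired-end reads, mapped them with HISAT2 to hg19 (GRCh37), counted them on RefSeq genes with GenomicAlignments and tested them with edgeR after upper quantile normalization and RUV, which removes unwanted variation. Counting mode, strand handling and tool versions are not given in the sources used here. The table the authors deposited is named for CPM but holds whole-number counts whose totals differ between libraries, and it was used as counts. Its rows are RefSeq accessions, called transcripts here, and of 64519 accessions 40144 had no count anywhere. A second deposited table holds the authors' log2 fold changes and FDR values, and only its pairing of accessions with symbols was used. Symbols came from RefSeq for 9983 tested transcripts and from that table for 176, and 8 had none.

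Counts were analysed in R 4.3.3 with edgeR 4.0.16. Transcripts above 1 CPM in at least 2 of the 24 libraries were kept (10167), libraries were scaled by upper quartile factors, and a model of the 8 groups and the replicate number was fitted to all 24 libraries with the quasi-likelihood test. Adjusted p-values (Benjamini-Hochberg) cover the whole of the tested transcripts. CPM values were computed from library totals. The design had been written for either unit, and counts called for edgeR. Replicate numbers were taken as pairs because replicates were made on different days, and because same-numbered shNS dex and shG9a dex libraries deviated together from their group means (r = 0.226, 0.121 and 0.428). Nothing else states what was shared between same-numbered cultures. Pairs of replicates differed by a chi-squared statistic of 4.75 to 43.4 per degree of freedom, so none was a duplicate. On simulated tables for the comparison in dex (3 tables of 10167 transcripts with 200 changed), 51.7% of 1.5-fold and 59% of 2-fold changes were recovered, with 4.04% false calls. Totals ran from 9289533 to 14387770 counts, and lower bounds of folds take 3 counts per library as the floor and cover counting error only.

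Named were the 12 largest rises and 12 largest falls among calls of at least 5 CPM with the same sign in 3 of 3 pairs, the 8 largest changes in CPM each way, up to 4 called members per gene list by adjusted p, up to 6 interactions and up to 5 transcripts each way per direct contrast, up to 4 noncoding RNAs each way, the 4 largest changes each way below 5 CPM, and the genes of G9a and its partners. This gave 124 transcripts of 122 genes, of which 116 genes have GRCh37 positions from GENCODE. Some results are not reported here. The members and the gene lists were chosen with earlier results of these data known. Alternatives were TMM and RLE scaling, DESeq2 1.42.0, limma-voom (limma 3.58.1), other filters, 1 RUV factor, no replicate block, only the groups compared, counts summed per gene symbol and each library or replicate number left out.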

Additional observations from a re-analysis of the deposited data

Results flagged for a closer look

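At 9 transcripts the log2 change between shG9a and shNS cells differed between dex and ethanol by the interaction test of edgeR at an adjusted p of at most 0.05, which is 0.0885% of the 10167 tested. The change in dex was more positive at ID3, by 0.70, with an adjusted p of 0.00185. It was more negative at CERNA2 by -1.23, DEPP1 by -1.10, KCNK3 by -0.99, DISP3 by -0.82, CYTH3 by -0.81, BTNL9 by -0.72, PER1 by -0.72 and TMT1A by -0.62. At DEPP1 the change in dex alone was not called. Over the 12 fits that left out 1 library each, the adjusted p ran from 0.000743 to 0.0162 at ID3, from 0.00138 to 0.0235 at CYTH3 and from 0.00138 to 0.0235 at PER1. It reached 0.245 at BTNL9 and 0.261 at DEPP1. Without shG9a dex replicate 2, 10 interactions were called, among them all 9 of these.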

How the results depend on the processing

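Counts of calls in the comparison in dex stayed within 1.5 times of 895 under TMM, RLE, DESeq2, limma-voom, other filters, 1 RUV factor and sums per gene symbol (824 to 978), and the median log2 fold change of all transcripts lay between -0.0008855 and 0.0135 under the scalings and tools, without the block, on only the groups compared, with 1 RUV factor and without shG9a dex replicate 2. Without the replicate block the comparison in dex had 320 calls, ethanol 112, the interaction 2, the contrast with shGLP 387, that with shHP1g 243 and the dex response of shNS cells 518 in place of 1012. Fitted on only the groups compared, with the block, they had 167, 820, 2, 315, 47 and 2207. With single libraries or replicate numbers left out, the ranges were 157 to 947 in dex, 32 to 317 in ethanol, 0 to 13 for the interaction, 210 to 1037 against shGLP, 132 to 694 against shHP1g and 306 to 834 for the dex response. The share of dex-induced transcripts that were lower ran from 15.7% to 37.6%, and that of dex-repressed transcripts that were higher from 11.1% to 29.3%. The latter was 32.9% with a mean of at least 5 CPM. The interaction had 15 calls by DESeq2, 63 with no filter and 5 with a RUV factor. The cause of these shifts was not tested.

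The share of rises moved by over 10 percentage points with the scaling in ethanol (42.7% to 56.8% by TMM and 54.1% by RLE), against shGLP (44.2% to 55.8% by TMM), against shHP1g (40.5% to 53.2% by TMM, 55.7% by RLE, 56.5% by DESeq2 and 64.4% with no filter) and for the dex response (45.2% to 56.5% by TMM). Of the 108 named calls, all kept their sign under every setting, 40 were called under every one, 43 were lost without the block and 14 without shG9a dex replicate 2. RPS3A was lost when its accessions were summed (adjusted p = 0.594). Uncalled results that changed sign were those of WIZ, CBX3, ZNF644 and EHMT1. WIZ (NM_021241) was 0.0364 and CBX3 (NM_007276) 0.23 when summed per symbol. With libraries left out WIZ ran from -0.43 to 0.10, CBX3 from -0.14 to 0.025, ZNF644 from -0.12 to 0.00304 and EHMT1 from -0.0655 to 0.26. Depth limited calls of rare transcripts, of which 1.57% were called below 2 CPM.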
